A study of Mus musculus with 19 samples.

Results

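The mitogen-activated protein (MAP) kinase cascade genes were taken as every gene whose symbol begins with Mapk, Map2k, Map3k or Map4k followed by a digit, with the Mapkap and Mapk8ip genes left out. This gave 39 of the 18193 genes measured, and family genes that the annotation used here pairs with no probe set were not analysed here. By symbol, 35 of the 39 are kinases, namely 3 MAP4K, 15 MAP3K, 6 MAP2K and 11 MAPK. The other 4, Map3k7cl, Map2k3os, Mapk1ip1 and Mapk1ip1l, fit the rule by symbol and are not kinases of the cascade. The genes were read by 97 of the 34945 probe sets that carry 1 gene symbol, where a probe set is a group of array probes summarised as 1 value, and 26 of the 39 genes had several. Each gene was given the median over its probe sets, on the log2 scale.

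In these cascades each kinase phosphorylates and activates the next, in the order MAP4K, MAP3K, MAP2K and MAPK. The classical ERK arm runs through Map2k1 and Map2k2, the p38 arm through Map2k3 and Map2k6, the JNK arm through Map2k4, and the ERK5 arm through Map2k5 to Mapk7. In neurons the ERK arm links synaptic activity to lasting plasticity, and the JNK and p38 arms carry stress and injury signals and also act in dendrite growth and synaptic depression.

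RNA came from dendrites cut from hippocampal neurons of embryonic day 18 mice after 14 days in primary culture, and the labels call the cells pyramidal neurons. There were 5 Balb/c arrays (2 pools of 100 dendrites, 1 of 200 and 2 of 400) and 14 C57BL/6 arrays (4, 5 and 5 such pools). Neither strain was treated or carried an engineered allele per the labels, all RNA was amplified in several rounds before it was put on an Affymetrix mouse array, and dendrites could not be told from axons by shape when they were cut. Pools are called biological replicates, but no source says whether separate cultures or animals gave them, and p-values here reflect only how pools varied. An array's name gives the strain, the dendrites in the pool and the replicate, and values of the Balb/c arrays are listed in the order 100-1, 100-2, 200-1, 400-1 and 400-2.

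Some facts of the whole series touch the results below. Over all genes the median difference, Balb/c minus C57BL/6, was 0.216 log2 units, so each difference of a gene is given relative to that median gene, and the tests used the unshifted values. Balb/c 200-1, C57BL/6 200-1 and C57BL/6 400-1 lay between the strains. Their mean correlations were 0.68, 0.78 and 0.72 with the other Balb/c arrays and 0.78, 0.76 and 0.78 with the other C57BL/6 arrays. Balb/c 200-1 and C57BL/6 200-1 thus correlated more with the other strain than with their own. Balb/c 400-2 was also near both strains, at 0.77 with Balb/c and 0.72 with C57BL/6. The fit below that left out the first 3 arrays kept Balb/c 400-2. The values of 9 columns, the 5 Balb/c arrays and 4 of C57BL/6 (100-1, 100-2, 200-1 and 400-1), were deposited with more decimals than the other 10, all C57BL/6, and this number format was handled as a batch, although no source says what it stands for. No Balb/c array had the shorter format. Markers of the labelled cells were read (11 of 12 pyramidal neuron and dendrite markers), and 3 of the 11 were lower in Balb/c (Map2, Syt1 and Neurod6) and 1 higher (Camk2a). Of 8 microglia markers 4 were higher in Balb/c (Csf1r, Itgam, Ptprc and Tmem119), and their mean log2 value over the list ran from 6.65 to 7.30 in Balb/c and from 5.50 to 6.74 in C57BL/6. Among the others, 2 of 8 oligodendrocyte markers were higher, 1 of 8 astrocyte markers lower, and 1 of 8 interneuron markers higher and 2 lower. Of all genes, 21.1% were higher and 11.4% lower. When the fit allowed for this batch, Itgam (higher) and the interneuron marker Gad1 (lower) were the only marker calls kept. No pyramidal neuron and dendrite marker was among them. The 9 columns with more decimals, fitted by themselves, kept no marker call. The part of other cells in the results below was not tested, and with pooled dendrites, fewer structures of a kind and less RNA in each cannot be told apart.

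RefSeq promoter windows (assembly GRCm38.p6, 250 bases before to 50 after a transcription start) were found for 32 of the 39 genes. Of the 32, 10 had more than 1 window (31.2%), beside 15.4% of the 27025 genes in the table. Mapk10 and Mapk8, which encode JNK kinases, are shown because their probe sets differed most from each other between the strains, as described below, and each has 2 annotated starts on the minus strand. Capitals mark matches on either strand to TGACGTCA (the cyclic AMP response element), GGGCGG (the GC box), TATAAA (the TATA box) and TGANTCA (the AP-1 site).
Mapk10, chr5:103211285-103211584: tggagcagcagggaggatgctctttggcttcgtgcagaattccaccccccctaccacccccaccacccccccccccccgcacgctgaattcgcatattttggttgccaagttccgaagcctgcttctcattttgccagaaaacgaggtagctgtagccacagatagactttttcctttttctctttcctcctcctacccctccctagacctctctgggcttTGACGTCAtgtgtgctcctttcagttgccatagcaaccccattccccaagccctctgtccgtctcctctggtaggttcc
Mapk10, chr5:103058343-103058642: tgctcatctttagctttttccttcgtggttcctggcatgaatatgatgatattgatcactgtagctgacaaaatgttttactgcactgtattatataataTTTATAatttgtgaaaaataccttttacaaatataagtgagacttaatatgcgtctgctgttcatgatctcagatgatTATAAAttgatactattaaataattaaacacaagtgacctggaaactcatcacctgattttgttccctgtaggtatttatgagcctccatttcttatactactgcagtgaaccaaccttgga
Mapk8, chr14:33447109-33447408: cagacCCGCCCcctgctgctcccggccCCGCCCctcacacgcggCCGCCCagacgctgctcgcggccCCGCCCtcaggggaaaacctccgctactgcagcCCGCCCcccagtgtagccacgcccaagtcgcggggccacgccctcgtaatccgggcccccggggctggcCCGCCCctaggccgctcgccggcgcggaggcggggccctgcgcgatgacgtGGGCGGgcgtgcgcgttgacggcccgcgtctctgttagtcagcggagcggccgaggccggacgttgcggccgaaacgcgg
Mapk8, chr14:33410975-33411274: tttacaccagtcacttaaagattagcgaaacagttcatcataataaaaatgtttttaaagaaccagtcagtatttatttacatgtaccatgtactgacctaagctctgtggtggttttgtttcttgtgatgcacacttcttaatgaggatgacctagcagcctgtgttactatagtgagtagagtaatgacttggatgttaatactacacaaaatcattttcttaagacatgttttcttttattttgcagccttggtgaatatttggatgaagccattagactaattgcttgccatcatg

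Of these windows, 1 of each gene was rich in AT (32.7% GC for Mapk10 and 34.3% for Mapk8), and the other had 55.3% GC in Mapk10 and 77.7% in Mapk8, where the median window of all genes had 52.7%. The GC-richer Mapk10 window held the cyclic AMP response element, which ended 22 bases before the start. That motif was in 1.8% of all 32851 windows and in 1 of the 43 windows of cascade genes, this one of Mapk10. The AT-rich Mapk10 window had 2 matches to TATAAA, a motif in 13.6% of all windows and in 2 of the 43 windows of cascade genes (Map2k6 and Mapk10). The GC-rich Mapk8 window had 7 matches to GGGCGG, and the AT-rich one had no match. GGGCGG was in 35.7% of all windows and in 27 of the 43 windows of cascade genes, which belonged to 24 of the 32 genes. TGANTCA was in 7.8% of all windows and in 2 of the 43 windows of cascade genes (Map2k6 and Map3k10). A match is a description of the letters, and the files do not place the probe sets, so it is not known here which start a probe set reads.

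The first comparison asked which cascade genes differed between the dendrites of the strains. In Balb/c, 6 of the 39 genes were higher and 2 lower, and 31 did not pass (limma over all 18193 genes, adjusted p under 0.05). Mapk7, the ERK5 kinase, was higher, as were the MAP3Ks Map3k1 and Map3k11, the p38 activator Map2k3 and 2 of the non-kinase genes (Map3k7cl and Map2k3os), while Map3k2 and the JNK activator Map2k4 were lower. Over all genes 21.1% were higher and 11.4% lower, beside 15.4% and 5.13% of the cascade genes. No cascade gene had strains that did not overlap at all, and over all genes 1.21% did. The median cascade gene differed by 0.08 log2 units from the median gene. With quantile normalisation, which moved the median of all genes to 0.081, or with centring and range scaling, which moved it to 0.046, the counts were 6 higher and 5 lower (over all genes 2763 and 2522, or 2590 and 2651, beside 3837 and 2073 as deposited). Taking each gene's brightest probe set in place of the median gave 13 higher and 4 lower (33.3% and 10.3%, beside 20.6% and 14.1% of all genes). Leaving out arrays moved the counts over all genes as well. Without Balb/c 200-1 the counts were 10 and 4, and over all genes 4274 and 2275. Without Balb/c 200-1, C57BL/6 200-1 and C57BL/6 400-1 they were 11 and 6, and over all genes 5134 and 2792. Without Balb/c 100-2 and 400-1 they were 3 and 0, and over all genes 1115 and 947. Those 2 arrays held the fewest distinct values (1569 and 2052, beside 2603 or more in each other array). The lower count was also 4 without C57BL/6 100-2 or without C57BL/6 200-4. With the number format as a block, or within the 9 columns of the long format alone, no cascade gene passed (9 and 3 had an unadjusted p under 0.05). Over all 18193 genes the block left 118 higher and 232 lower (0.649% and 1.28%), with 3914 at an unadjusted p under 0.05, and the long format alone left none, with 2367. All 8 genes kept their direction with the block, at 0.52 to 1.08 log2 units and limma adjusted p from 0.094 to 0.47.

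**Figure D1:**
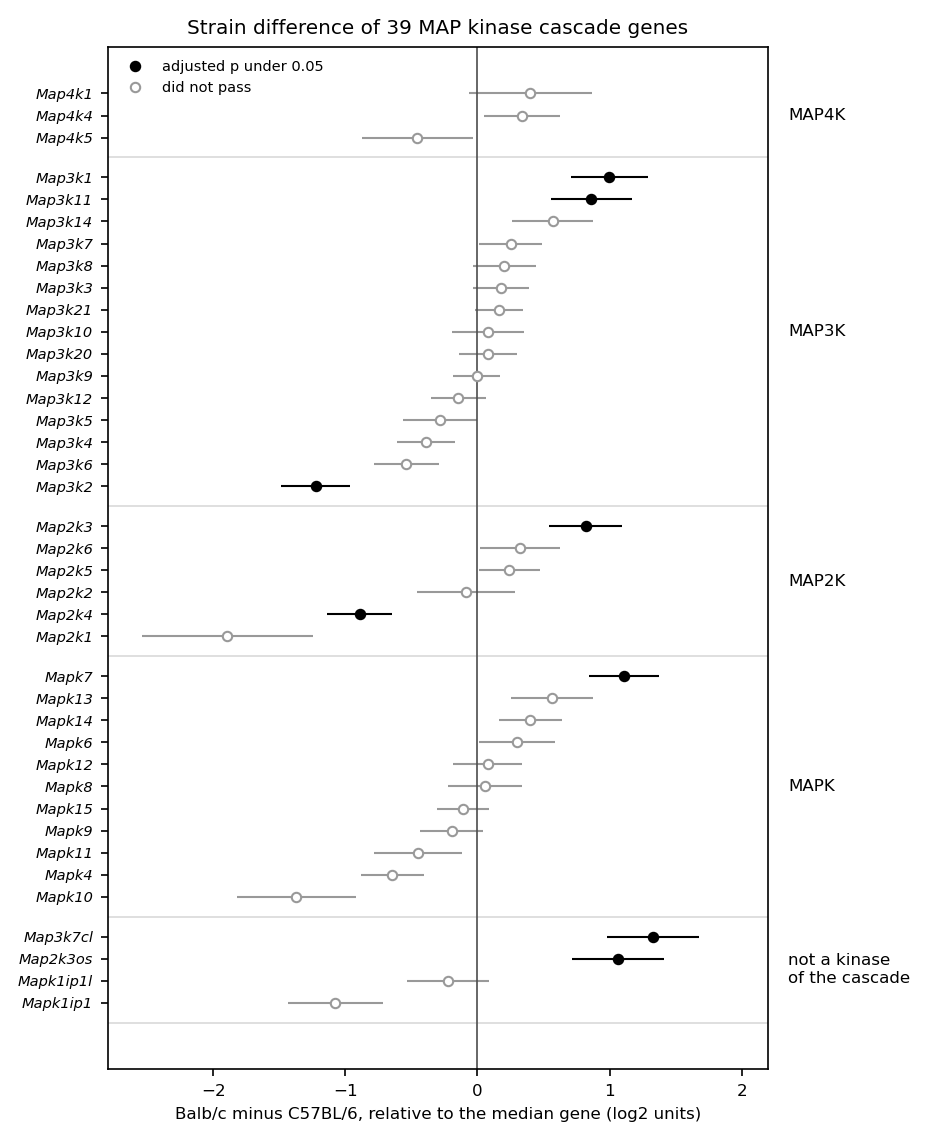
Balb/c minus C57BL/6 difference of the 39 genes relative to the median gene (x axis, log2 units; bars, standard error of the limma fit), grouped by tier and ordered within it. Filled points passed an adjusted p of 0.05: 6 to the right of 0, Map3k7cl farthest at 1.33, and 2 to the left, Map3k2 at −1.23 and Map2k4 at −0.89.

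At the top of the cascade, none of the 3 MAP4K genes passed. Map4k1, a kinase best known from blood cells, was 9.64, 9.33, 6.45, 9.11 and 9.69 in Balb/c arrays, against 6.86 to 9.74 with a median of 8.38 in C57BL/6. The Balb/c 200-1 array was below all C57BL/6 arrays, and the other 4 were above the C57BL/6 median. The difference was 0.40 ± 0.47 (SE, limma adjusted p = 0.32), and it passed when Balb/c 200-1 was left out (limma adjusted p = 0.023). Map4k4, an activator of the JNK arm, differed by 0.34 ± 0.29 (SE) and Map4k5 by −0.46 ± 0.42.

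Among the 15 MAP3K genes 2 were higher, 1 was lower and 12 did not pass, with a median difference of 0.08. Map3k1 (MEKK1), which can feed the JNK arm, was 7.16, 5.83, 6.21, 6.15 and 6.24 in Balb/c, against 4.10, 5.11 and 6.14 (lowest, median and highest) in C57BL/6. In 4 of 5 Balb/c arrays it was above every C57BL/6 array, and Balb/c 100-2 was the exception. The means were 6.32 ± 0.50 and 5.10 ± 0.58 (SD, n = 5 and 14), a difference from the median gene's of 0.999 ± 0.29 (limma adjusted p = 0.0039).

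Map3k11 (MLK3), a mixed-lineage kinase upstream of JNK, was 8.16, 9.39, 6.76, 9.06 and 8.48 in Balb/c, against 6.84, 7.18 and 8.08 in C57BL/6. Balb/c 200-1 was below all C57BL/6 arrays and the other 4 Balb/c arrays above them all. The difference was 0.86 ± 0.31 (limma adjusted p = 0.011). It was not called without Balb/c 100-2 or without Balb/c 400-1 (limma adjusted p up to 0.057).

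Map3k2 (MEKK2), which activates Map2k5 and through it Mapk7, was 4.69, 4.20, 5.40, 4.53 and 5.84 in Balb/c, against 5.34, 5.95 and 6.64 in C57BL/6. In 3 Balb/c arrays it was below every C57BL/6 array, while 200-1 and 400-2 lay within their range. The difference was −1.23 ± 0.26 (limma adjusted p = 0.0064), but none of its 3 probe sets passed alone, with differences from −1.53 to −0.60.

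Other MAP3Ks with a known part in neurons did not pass. Map3k12 (DLK), a kinase of the response to axon injury, differed by −0.14 ± 0.21, Map3k5 (ASK1), which responds to oxidative stress, by −0.28 ± 0.28, and Map3k7 (TAK1) by 0.25 ± 0.24. The 4 probe sets of Map3k12 ran from −1.25 to 1.05, and the last of these, 1458198_at, was called higher by itself (limma adjusted p = 0.017). Map3k14 (NIK), of the non-canonical NF-kappaB pathway, differed by 0.57 ± 0.31 (limma adjusted p = 0.053). With 1 array left out its difference ran from 0.31 to 0.81, and it was called in 5 of 19 such fits, those without Balb/c 200-1 or 400-2, or C57BL/6 100-2, 200-2 or 200-5 (limma adjusted p 0.010 to 0.21).

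Of the 6 MAP2K genes 1 was higher, 1 was lower and 4 did not pass. Map2k3, which activates p38, was 8.93, 10.43, 9.79, 10.72 and 10.13 in Balb/c, against 8.28, 8.93 and 9.70 in C57BL/6. It was above every C57BL/6 array in 4 of 5 Balb/c arrays, with 100-1 the exception. The difference was 0.82 ± 0.28 (limma adjusted p = 0.0075), and both of its probe sets were called higher (0.84 and 0.80). Map2k6, the other p38 activator, differed by 0.32 ± 0.30 and did not pass (limma adjusted p = 0.18).

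Map2k4, which activates JNK, was 8.07, 6.88, 8.35, 7.51 and 8.35 in Balb/c, against 7.86, 8.55 and 9.10 in C57BL/6. In 2 Balb/c arrays, 100-2 and 400-1, it was below every C57BL/6 array. The difference was −0.89 ± 0.24 (limma adjusted p = 0.038), and the call was lost without any 1 of 7 arrays: Balb/c 100-2 or 400-1, or C57BL/6 200-3, 400-2, 400-3, 400-4 or 400-5 (adjusted p up to 0.18).

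The activators of the classical ERK arm did not pass. Map2k1 was 5.90, 7.68, 10.21, 7.18 and 9.69 in Balb/c, against 7.25, 9.53 and 11.75 in C57BL/6. The Balb/c arrays were far apart (SD 1.79, and 1.27 in C57BL/6), and 2 of them (100-1 and 400-1) were below all C57BL/6 arrays. At −1.89 ± 0.65 it had the largest difference of the 39 genes, with a limma adjusted p of 0.051, and it passed with quantile normalisation, with range scaling and without Balb/c 200-1 or 400-2 or C57BL/6 100-2 or 200-4. Map2k2 differed by −0.08 ± 0.37. Map2k5, the activator of Mapk7, differed by 0.24 ± 0.23.

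Of the 11 MAPK genes 1 was higher and 10 did not pass. Mapk7 (ERK5) was 7.41, 8.49, 7.91, 8.71 and 9.25 in Balb/c, against 6.48, 6.97 and 7.73 in C57BL/6. It was above every C57BL/6 array in 4 of 5 Balb/c arrays, all but 100-1, and the 2 highest C57BL/6 arrays were 400-1 (7.73) and 200-1 (7.68). The means were 8.35 ± 0.71 and 7.03 ± 0.39 (SD), a difference of 1.11 ± 0.26 (limma adjusted p = 0.0011), which stayed past the threshold when any 1 of the 19 arrays was left out. The same held for Map3k1, Map3k2, Map2k3, Map3k7cl and Map2k3os. Mapk7, Map3k7cl, Map2k3os and the called Map3k11 were each read by 1 probe set, so no second probe set could be compared.

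None of the p38 genes passed. Mapk14 (p38 alpha) differed by 0.40 ± 0.24 with a limma adjusted p of 0.0503, and Mapk13 (p38 delta) by 0.56 ± 0.31 with 0.056. Leaving out 1 array brought Mapk14 past the threshold in 4 of 19 fits and Mapk13 in 3, in both without Balb/c 200-1, C57BL/6 100-2 or C57BL/6 200-3, and for Mapk14 also without C57BL/6 200-5. Mapk11 (p38 beta) differed by −0.45 ± 0.33 and Mapk12 (p38 gamma) by 0.08 ± 0.26. The atypical kinases Mapk6 (ERK3) and Mapk4 (ERK4) differed by 0.30 ± 0.29 and −0.64 ± 0.24, and Mapk15 by −0.11 ± 0.20, and none of them passed.

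The JNK genes did not pass as genes: Mapk10 (JNK3, the form found mainly in the nervous system) differed by −1.37 ± 0.45 (limma adjusted p = 0.054), Mapk8 (JNK1) by 0.06 ± 0.28 and Mapk9 (JNK2) by −0.20 ± 0.24. Mapk10 passed with quantile normalisation (limma adjusted p = 0.033), with range scaling (0.032) and in 3 of 19 fits that left out 1 array (Balb/c 200-1, C57BL/6 100-1 or C57BL/6 200-4), over which its difference ran from −2.01 to −1.08. The probe sets of the JNK genes are described below.

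Among the non-kinase genes, Map3k7cl, named for its likeness to the end of Map3k7, was 7.20, 7.59, 7.68, 6.30 and 7.18 in Balb/c, against 4.41, 5.78 and 7.33 in C57BL/6. C57BL/6 200-1 (7.33) and 400-1 (6.58) were the only C57BL/6 arrays above the lowest Balb/c array. The difference was 1.33 ± 0.35 (limma adjusted p = 0.0026). Map2k3os, named as an opposite strand transcript of Map2k3, was 7.58, 7.93, 8.16, 8.52 and 8.60 in Balb/c, against 5.47, 6.92 and 7.89 in C57BL/6. All but 1 Balb/c array (100-1) was above every C57BL/6 array, and the difference was 1.06 ± 0.35 (limma adjusted p = 0.008). The annotated span of Map2k3os on chromosome 11 (60920941 to 60931867) ended before that of Map2k3 began (60932054). Whether Map2k3os shares sequence with the probe sets of Map2k3 was not tested. Mapk1ip1 differed by −1.08 ± 0.36 and did not pass (limma adjusted p = 0.070), but it passed with quantile normalisation, with range scaling and without C57BL/6 100-2, 200-1 or 400-1.

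**Figure D2:**
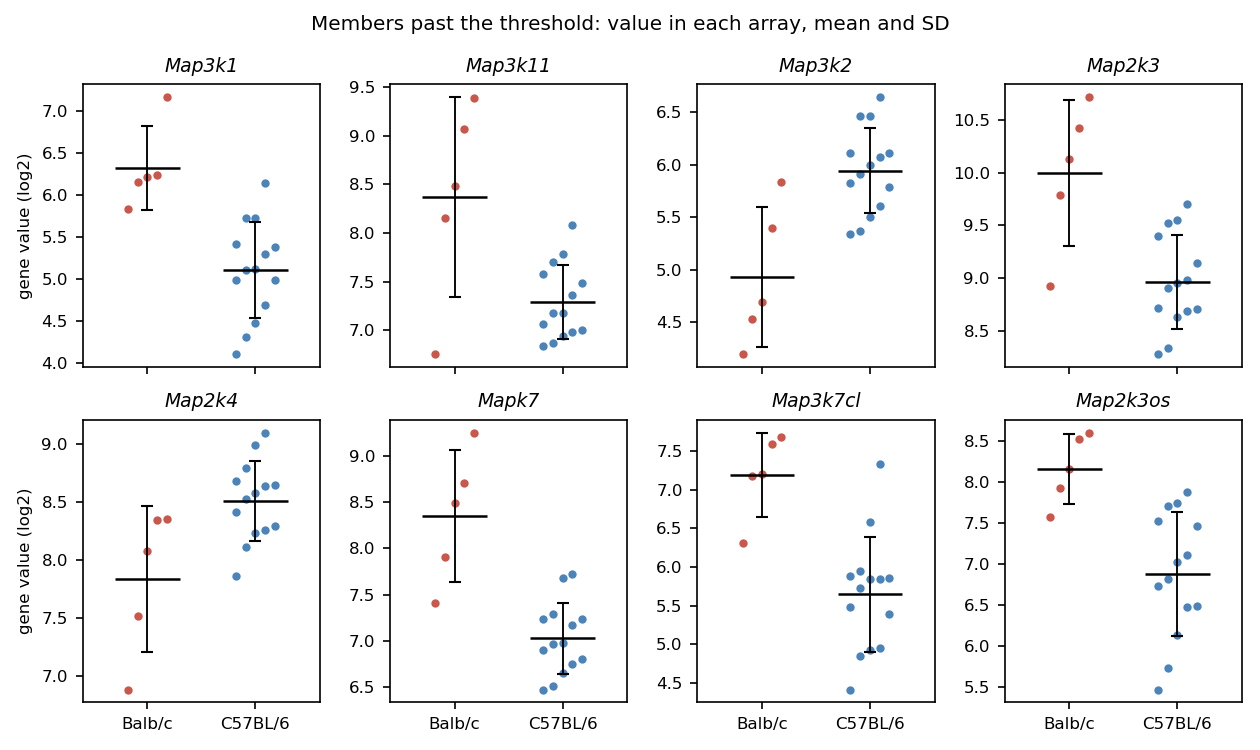
Gene value (log2) in each of the 5 Balb/c (left, red) and 14 C57BL/6 arrays (right, blue) for the 8 genes past the threshold; horizontal lines are means and bars SD. The strains overlap in each panel, for Mapk7 between 7.41, the lowest Balb/c array, and 7.73, the highest C57BL/6 array.

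Each probe set was then tested by itself among the 34945 with 1 symbol, a test added after the gene values had been seen. Of the 97 probe sets of the cascade genes 23 were higher in Balb/c (23.7%, beside 20.4% of all probe sets) and 6 lower (6.2%, beside 12.9%). The higher ones lay in 19 genes, among them Mapk10, Mapk9 and Map3k7, which also had a lower one. Map3k1, Map3k11 and Map4k4, upstream of JNK, were among the 19 too. So were the MAP3Ks Map3k3, Map3k10, Map3k12, Map3k14, Map3k20 and Map3k21. The 6 lower ones lay in 5 genes: the JNK genes Mapk10 (2 probe sets), Mapk8 and Mapk9, the JNK activator Map2k4, and Map3k7, a MAP3K that can act on JNK and p38. Of the 21 genes with a called probe set 14 were not called by their gene value.

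Among the 26 genes with several probe sets, 19 had estimates on both sides of 0. In 3 of them (Mapk10, Mapk9 and Map3k7, 11.5%) probe sets passed in opposite directions, and over all genes with several this held for 897 of 9010 (9.96%).

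**Figure D3:**
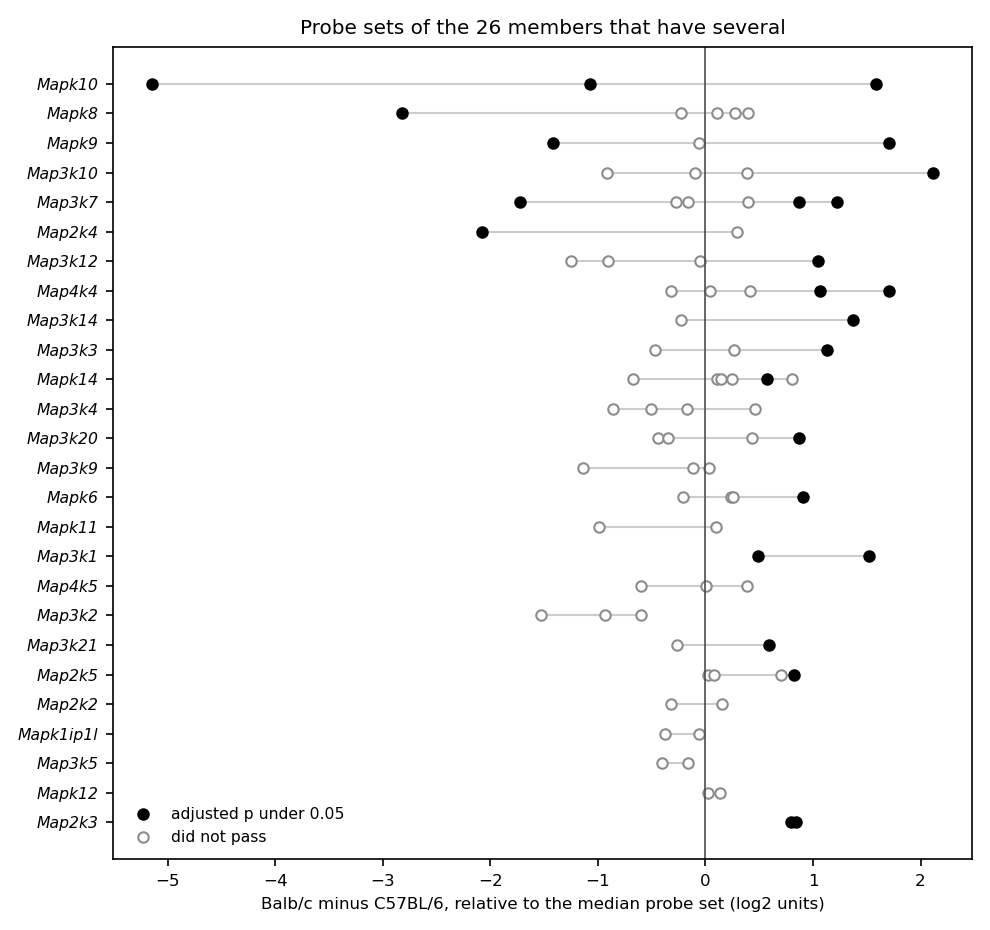
Balb/c minus C57BL/6 difference of every probe set of the 26 genes with several, relative to the median probe set (x axis, log2 units), ordered by the range within a gene; filled points passed an adjusted p of 0.05. Mapk10 spans the widest range, from −5.15 to 1.58, and the 2 probe sets of Map2k3 lie together.

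Mapk10 had the widest spread. Its probe set 1437195_x_at was 6.05, 2.92, 10.70, 2.96 and 7.86 in Balb/c, against 9.95, 11.14 and 12.37 in C57BL/6. In 4 Balb/c arrays it was below every C57BL/6 array, while Balb/c 200-1 lay within their range, and the SD was 3.32 in Balb/c and 0.665 in C57BL/6. The values 2.92 and 2.96 were near 2.12, the lowest value of the whole series. The difference was −5.15 ± 0.79 relative to the median probe set (limma adjusted p = 0.00021). Probes of a set named x_at can match several transcripts, so this value may not be of Mapk10 alone.

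Probe set 1448342_at of Mapk10 went the other way, at 11.67, 10.57, 10.13, 10.41 and 10.49 in Balb/c, against 7.88, 8.76 and 10.44 in C57BL/6. Only C57BL/6 400-1 (10.44) reached the Balb/c arrays, and the difference was 1.58 ± 0.37 (limma adjusted p = 0.0013). The third, 1458513_at, was 6.61 to 7.13 in Balb/c and 6.80 to 9.01 in C57BL/6, a difference of −1.07 ± 0.28 (limma adjusted p = 0.024) that was not called without Balb/c 100-2 or without Balb/c 400-1 (adjusted p up to 0.074).

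In Mapk8, 1 of 5 probe sets passed. Probe set 1440856_at was 8.33, 5.88, 8.80, 6.93 and 7.06 in Balb/c, against 9.03, 9.83 and 10.85 in C57BL/6. All 5 Balb/c arrays were below all C57BL/6 arrays. The difference was −2.82 ± 0.39 (limma adjusted p = 0.00014), and those of the other 4 probe sets ran from −0.23 to 0.39.

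Mapk9 had 1 probe set in each direction and 1 that did not pass. Probe set 1421876_at was 5.55, 5.23, 6.24, 5.26 and 5.71 in Balb/c, against 5.93, 6.90 and 7.58 in C57BL/6, and Balb/c 200-1 alone lay within the C57BL/6 range. Its difference was −1.42 ± 0.29 (limma adjusted p = 0.0040). Probe set 1421878_at was 7.83, 8.38, 7.40, 9.65 and 8.27 in Balb/c, against 4.66, 6.35 and 7.76 in C57BL/6, with 4 of 5 Balb/c arrays above every C57BL/6 array, a difference of 1.71 ± 0.44 (limma adjusted p = 0.0027). The third, 1421877_at, differed by −0.06 ± 0.32.

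In Map2k4, the JNK activator, 1 of 2 probe sets passed. Probe set 1451982_at was 9.05, 7.23, 10.35, 8.01 and 9.07 in Balb/c, against 9.99, 10.72 and 11.13 in C57BL/6. It was below every C57BL/6 array in 4 of 5 Balb/c arrays, and the difference was −2.07 ± 0.34 (limma adjusted p = 0.0006). The other probe set, 1426233_at, differed by 0.30 ± 0.27 and did not pass.

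**Figure D4:**
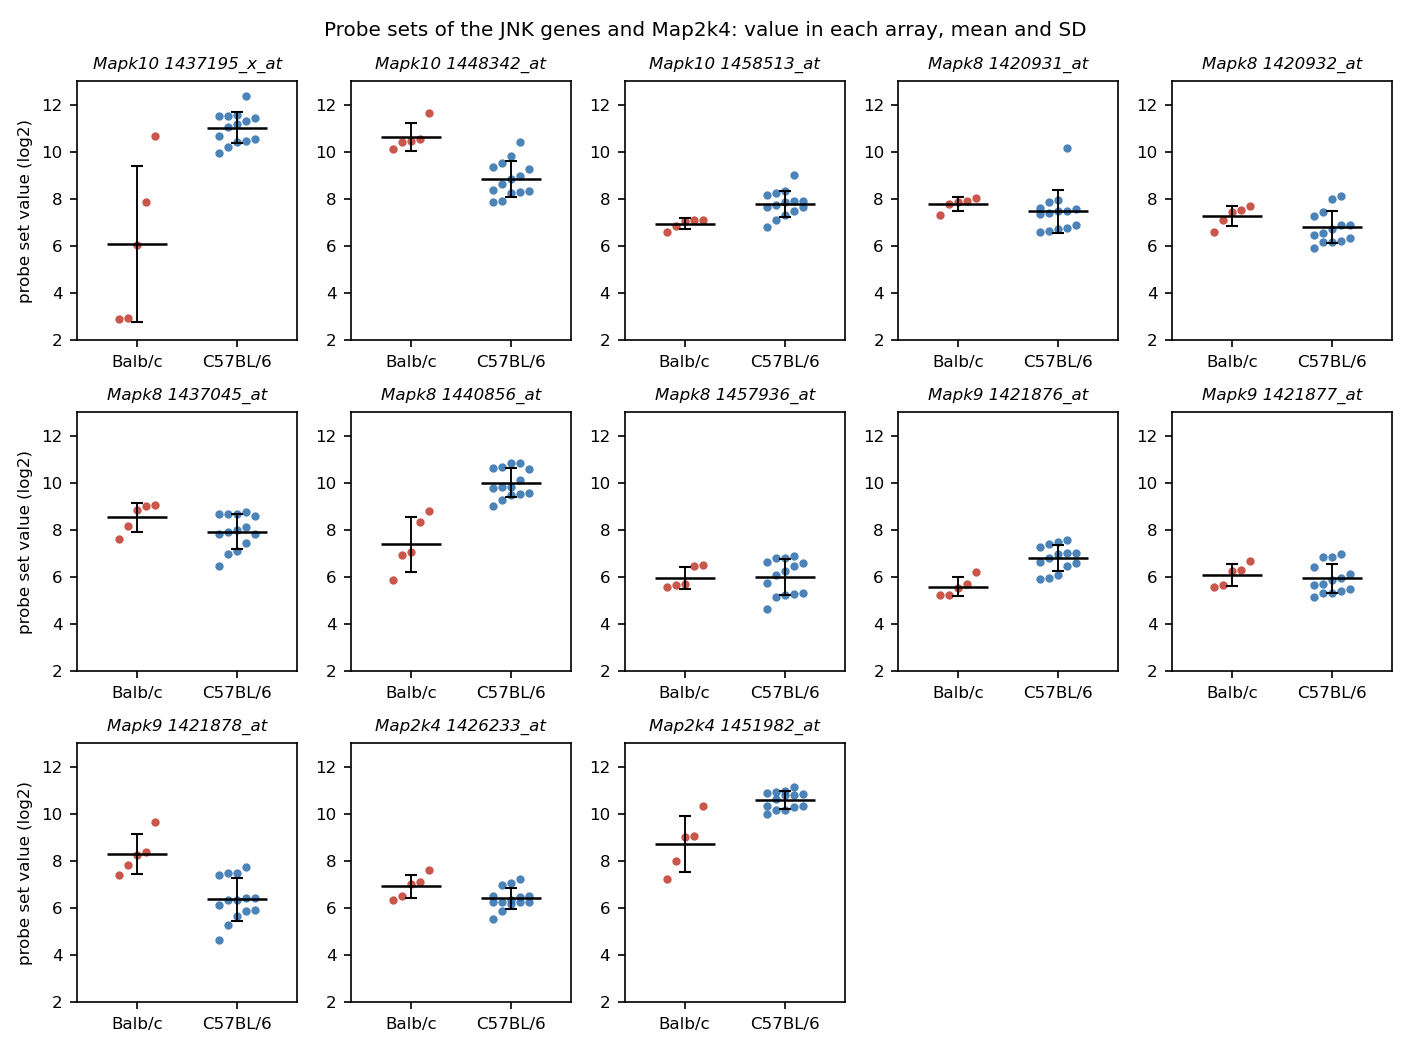
Value (log2) of each probe set of Mapk10, Mapk8, Mapk9 and Map2k4 in the 5 Balb/c (left, red) and 14 C57BL/6 arrays (right, blue), with means and SD, on 1 axis range. Mapk10 1437195_x_at is as low as 2.92 in Balb/c, while Mapk10 1448342_at is at 10.13 or above in all Balb/c arrays.

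Of the higher probe sets outside these genes, 1436373_at of Map3k10 (MLK2) had the largest difference at 2.12 ± 0.57 (limma adjusted p = 0.0044), with Balb/c arrays from 8.25 to 11.65 and C57BL/6 arrays from 6.75 to 10.22. Probe set 1440609_at of Map4k4 was 11.82, 11.31, 10.56, 11.51 and 10.52 in Balb/c, against 7.93, 9.15 and 10.22 in C57BL/6. All Balb/c arrays were above all C57BL/6 arrays, and the difference was 1.71 ± 0.36 (limma adjusted p = 0.00062). In Map3k7, 1447801_x_at differed by −1.72 ± 0.36 and 1449693_at by 1.22 ± 0.51, with 11.22 in Balb/c 100-1 and 6.71 to 8.11 in the other Balb/c arrays. The call of 1449693_at was lost without any 1 of 4 arrays (Balb/c 100-1 or 400-2, C57BL/6 100-1 or 200-5), and without Balb/c 100-1 its difference was 0.49 (limma adjusted p = 0.20).

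With the number format as a block, 3 of the 97 probe sets passed, 1 higher and 2 lower (1.03% and 2.06%, beside 0.569% and 1.63% of all probe sets): 1437195_x_at of Mapk10 (−4.73, limma adjusted p = 0.027) and 1440856_at of Mapk8 (−2.30, adjusted p = 0.028) were lower, and 1440609_at of Map4k4 was higher. Within the 9 columns of the long format alone none passed, and 11 had an unadjusted p under 0.05, beside 4583 of all 34945. Without Balb/c 100-2 and 400-1, the 2 arrays lowest for Mapk10 1437195_x_at, that probe set was still called, at −3.02 (limma adjusted p = 0.011).

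The second question was whether cascade genes changed with the number of dendrites in a pool. With strain as a covariate no cascade gene passed (limma adjusted p under 0.05), as for 0% of all genes, and 1 of the 39 and 850 of all 18193 had an unadjusted p under 0.05. The smallest p was that of Map2k1, with a slope of 0.71 ± 0.32 log2 units per doubling of dendrites (p = 0.040 before and 0.96 after adjustment in limma). Its means were 6.79, 10.21 and 8.43 for 100, 200 and 400 dendrites in Balb/c, and 8.75, 10.35 and 10.12 in C57BL/6. In both strains the pools of 200 were highest and those of 100 lowest. The Balb/c value for 200 was that of 1 array, Balb/c 200-1, which correlated more with C57BL/6 arrays than with its own strain. Mapk4 came next at 0.24 ± 0.12 per doubling (p = 0.067 before and 0.96 after adjustment in limma).

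The slope did not differ between the strains for any cascade gene past the threshold, as for 0% of all genes, and 3 of the 39 and 690 of all genes had an unadjusted p under 0.05. Map2k3os had the smallest p, with a slope higher by 0.87 ± 0.35 per doubling in Balb/c (p = 0.018 before adjustment in limma). Its means for 100, 200 and 400 dendrites were 7.76, 8.16 and 8.56 in Balb/c, and 7.32, 7.07 and 6.34 in C57BL/6. Mapk6 came next at 0.71 ± 0.31 (p = 0.024 before adjustment in limma), with means of 6.71, 7.32 and 7.83 in Balb/c, and 7.05, 6.63 and 6.66 in C57BL/6. For both genes the Balb/c means were higher in larger pools, and the adjusted p was 1.0.

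**Figure D5:**
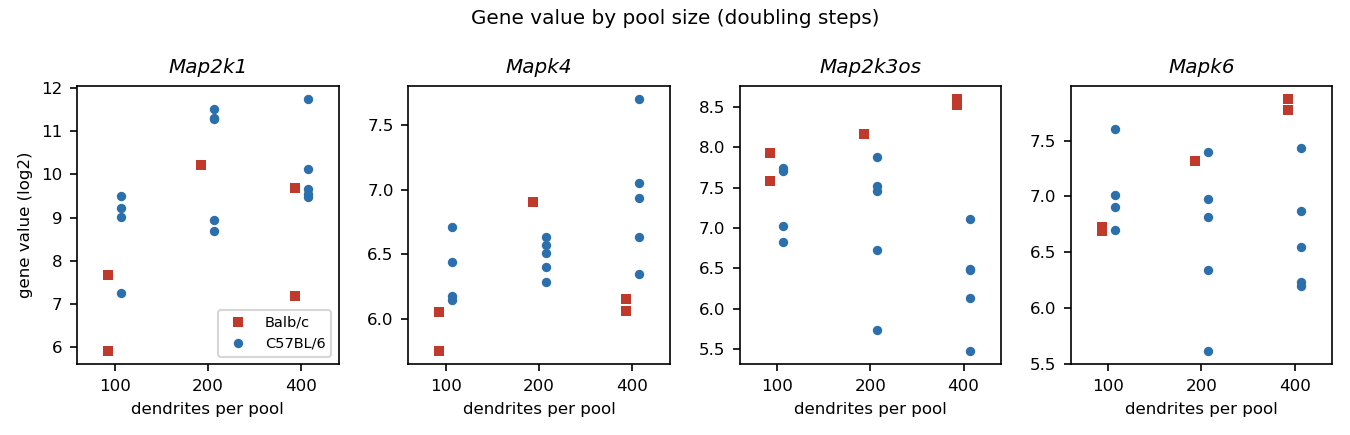
Gene value (log2) against dendrites per pool (100, 200 and 400, in doubling steps) for Map2k1 and Mapk4, the genes with the smallest p for the pool size slope, and Map2k3os and Mapk6, those with the smallest p for a slope that differed between strains; red squares are Balb/c arrays and blue circles C57BL/6 arrays. Map2k1 runs from 5.90 to 11.75, and with 5 Balb/c arrays each Balb/c pool size has 1 or 2 points.

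Genes that act on the cascade or below it were read from lists of the pathway's genes, each gene tested in the same limma fit, in which 21.1% of all genes were higher and 11.4% lower. With the number format as a block 4 of the calls below were kept, all lower: Rasgrf1 (adjusted p = 0.044), Lamtor3 (0.034), Gadd45a and Atf2 (0.0499). Within the long format alone none was kept. Of 17 genes of Ras and its regulators 5 were higher and 6 lower in Balb/c. The exchange factor Rasgrf1, which links calcium to Ras, was 7.16 ± 0.62 in Balb/c and 9.03 ± 0.54 in C57BL/6 (SD), lower, at −2.09 ± 0.29 (adjusted p = 0.00021). Rasgrf2 was lower, at −1.32 ± 0.32 and the ERK inhibitor Spry4 higher by 0.95 ± 0.31.

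Of 18 scaffolds and adaptors, a list that holds Mapk1ip1, 2 were higher and 3 lower. Lamtor3, a scaffold for the ERK arm on late endosomes, averaged 9.19 ± 1.08 in Balb/c and 11.35 ± 0.55 in C57BL/6 (SD), lower, at −2.38 ± 0.35 (adjusted p = 0.00027). Pebp1, an inhibitor of Raf signalling, was lower, at −2.31 ± 0.44 (adjusted p = 0.0016), while Mapk8ip3, a JNK scaffold carried by kinesin, was higher by 0.91 ± 0.31 (adjusted p = 0.0091).

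Of 16 MAPK phosphatases, which switch the kinases off, 4 were higher and none lower (Dusp2, Dusp5, Dusp6 and Dusp7), beside 21.1% higher over all genes, and none of the 4 passed with the number format as a block. Dusp6, which acts on ERK, averaged 6.66 ± 0.66 in Balb/c and 5.50 ± 0.49 in C57BL/6 (SD), a difference of 0.94 ± 0.28 (adjusted p = 0.0044). Dusp5 and Dusp7 were higher by 1.06 ± 0.37 and 0.63 ± 0.28. Relative to the median gene the list's median was 0.07.

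Of 17 transcription factor targets and activity genes 2 were higher and 3 lower. Atf2, a factor that JNK and p38 phosphorylate, averaged 5.37 ± 0.30 in Balb/c and 6.97 ± 0.56 in C57BL/6 (SD), lower, at −1.81 ± 0.27 (adjusted p = 0.00037). Mef2c, a target of p38 and ERK5, was lower, at −1.31 ± 0.36 and Atf4 by −2.01 ± 0.60, while Arc, an activity-regulated gene of dendrites, was higher by 0.69 ± 0.31 and Elk1 by 0.45 ± 0.25.

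Of 9 kinases activated by MAPKs 1 was lower and none higher. Mapkapk5, which p38 and the atypical MAPKs bind, was lower, at −2.33 ± 0.42 (adjusted p = 0.0011). Of 8 Ste20-like kinases outside the Map4k symbols 1 was higher (Mink1, 0.53 ± 0.21) and 2 lower (Tnik, −0.91 ± 0.22, and Pak3, −2.26 ± 0.51). Of 3 kinases at the MAP3K level outside the Map3k symbols Braf was higher by 0.48 ± 0.23 (adjusted p = 0.024).

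For 17 of the 39 both strain means were below 6.62, the lowest array median, as for 5274 of all 18193 genes. The called Map3k1 (6.32 in Balb/c and 5.10 in C57BL/6) and Map3k2 (4.93 and 5.94) were among the 17. The SD was larger in Balb/c for 24 of the 39 (61.5%), as it was for 58.7% of all genes. With 5 Balb/c arrays a difference that did not pass does not show that the strains were alike.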

How the data were processed

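Amplified RNA of 19 dendrite pools (5 Balb/c, 14 C57BL/6) was read on Affymetrix mouse arrays. The authors deposited log2 values for each probe set after RMA (version 2.0 by the submitters' processing notes). The base was inferred from their range (2.12 to 16). Centring and range scaling named in the methods did not show in the values (array medians 6.62 to 6.95) and were run as an alternative. The build behind the probe annotation is not stated. The number of arrays limits precision.

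Of 45101 probe sets 34945 had 1 symbol, and 99.4% of them matched RefSeq. Strain, pool size (slope per doubling of dendrites, strain as covariate) and their interaction were fitted in limma 3.58.1 under R 4.3.3 (lmFit, eBayes) for 18193 genes, with Benjamini-Hochberg adjustment at 0.05. The fit was first tested on simulated data. The number format, the replicate numbers, single arrays, pool sizes, other normalisations, filters and tests were alternatives. Named were the called genes, the MAP2K and MAPK of each arm, 4 MAP3Ks, the 3 genes whose probe sets differed most, up to 3 genes per list by p and the 2 smallest p of each pool size fit. Tests of single probe sets and the other genes named were added after values were seen. The genes and lists were chosen with earlier results of these data known.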

Additional observations from a re-analysis of the deposited data

Results flagged for a closer look

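Over the 5 Balb/c arrays, 39 gene values and 19 probe sets were screened for 1 array far from the others, which chance alone marks in about 1 of 20 groups. Map4k1 was 6.45 in Balb/c 200-1 and 9.11 to 9.69 in the other 4. Probe set 1448342_at of Mapk10 was 11.67 in Balb/c 100-1 and 10.13 to 10.57 in the others, and it was called in all 19 fits that left out 1 array. Probe set 1448050_s_at of Map4k4 was 5.45 in Balb/c 400-1 and 6.05 to 6.24 in the others.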

How the results depend on the processing

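Quantile normalisation and range scaling each left 6 genes higher and gave 5 lower. They gave 11 and 13 lower probe sets (11.3% and 13.4%, beside 14.8% and 15.7% of all probe sets). The brightest probe set of each gene gave 13 higher and 4 lower, and gave Mapk8 (−2.79) and Map3k7 (−1.69) a call against their sign. Relative to the median gene, Mapk9 (1.74, called), Mapk14 (−0.64) and Map4k5 (0.04) changed sign too. Blocking on the number format left 0 genes higher and 0 lower (1 and 2 probe sets), and with its long-format columns alone 0 and 0 (0 and 0 probe sets). Replicate numbers did not pair the strains (same-number correlations −0.189 to 0.071), and with the replicate block 0 genes and 0 probe sets passed in either direction, while 7 genes had an unadjusted p under 0.05. Over all genes and all probe sets the replicate block also left 0, with 3331 of all genes at an unadjusted p under 0.05. Pools of 100 dendrites gave 1 and 1 (2.56% each, beside 5.82% and 5.65% of all genes). Pools of 400 gave 5 and 0 (12.8% and 0%, beside 9.66% and 7.34%). A variance per strain left 6 and 1 (15.4% and 2.56%, beside 15.0% and 8.72%). Robust moderation gave 7 and 1 (17.9% and 2.56%, beside 21.2% and 11.4%). The t-test named in the methods gave 8 and 2 (20.5% and 5.13%, beside 20.7% and 10.6%). Without Balb/c 200-1, C57BL/6 200-1 and C57BL/6 400-1 the counts were 11 and 6 (28.2% and 15.4%, beside 28.2% and 15.3% of all genes). That fit gave 12 lower probe sets (12.4%, beside 16.7% of all). Without Balb/c 100-2 and 400-1 the counts were 3 and 0 (7.69% and 0%, beside 6.13% and 5.21%). That fit gave 8 higher probe sets (8.25%, beside 5.46% of all). Leaving out 1 array gave 5 to 10 higher and 1 to 4 lower genes, and 16 to 25 higher and 5 to 10 lower probe sets. Over all genes these fits gave 2529 to 4350 higher and 1564 to 2344 lower. Over all probe sets they gave 4576 to 8101 higher and 3373 to 5054 lower. A filter on dim genes left 20 of the 39 and moved their median difference to 0.33. No setting run gave a cascade gene past the threshold for pool size or its interaction. The cause of these changes was not tested, and dim probe sets and 5 Balb/c arrays limit what can be seen.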
